A study of Homo sapiens with 36 samples.

Results

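The 35 genes described here belong to the antioxidant programme of NRF2 and to the pentose phosphate pathway. They were chosen by name, as a list that covers the NRF2 regulators, the glutathione and thioredoxin systems, the enzymes that make NADPH, and enzymes and pumps that handle quinones, carbonyls and epoxides. They are 35 of the 35460 genes with a value. RNA was measured by bulk sequencing in MOLM-13 and MONO-MAC-6, both human acute myeloid leukaemia cell lines whose genotype is labelled as wild type. Each line received the solvent DMSO or the compound A9 for 72 h, A9 being used at 0.125 µM for MOLM-13 but at 0.25 µM for MONO-MAC-6, so that line and dose cannot be told apart. A9 is labelled as a PROTAC, a molecule that brings a target protein to a ubiquitin ligase for degradation, and the texts of the series name NR4A1 and an IKK kinase as its targets (IKK1 in the title, IKK2 in the design). The 36 libraries gave 3 samples in each of 4 groups, because the 3 libraries that shared the first number of their label were averaged.

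NRF2 (gene NFE2L2) is a transcription factor that pairs with small MAF proteins, such as MAFG, on DNA sites called antioxidant response elements. In resting cells KEAP1 holds NRF2 and delivers it to a ubiquitin ligase, so NRF2 is controlled mainly at the level of its protein. Oxidants or electrophiles that modify KEAP1, or the autophagy adaptor SQSTM1 (p62) when it binds KEAP1, release NRF2. Its targets make glutathione, recharge thioredoxin and supply the NADPH on which both systems run, partly through the oxidative steps of the pentose phosphate pathway. Phagocytic cells also use NADPH to make superoxide, so this supply serves opposite purposes in the myeloid lineage.

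The core of an antioxidant response element was searched as TGACNNNGC, on both strands, in RefSeq promoter windows of GRCh38.p14 that span 250 bases before to 50 bases after an annotated start. By symbol 28 of the 35 genes matched a window (SLC7A11, GSR, PRDX1, PRDX6, CBR3, ABCC1 and ABCC3 did not), and 9 of these (32.1%) held the core, beside 16.1% of all 27305 genes with a window. Windows are unevenly spread over genes: per window, 10 of 40 member windows (25.0%) and 13.3% of all 35116 windows held it. The sites printed here are shown because they are the letters that NRF2 and a small MAF partner are known to bind. Each is read 5′ to 3′ on the strand that carries the core, which is in capitals, with 10 bases on each side.
GCLM: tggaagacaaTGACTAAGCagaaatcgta
KEAP1: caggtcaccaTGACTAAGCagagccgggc
TXNRD1: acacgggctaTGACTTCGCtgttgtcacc
PGD: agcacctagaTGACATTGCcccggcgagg
ME1: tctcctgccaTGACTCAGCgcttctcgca
EPHX1: tgagattggcTGACTTGGCaggactgtgc
PIR: agcctcaccgTGACTCAGCgcttcgcggc

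The GCLM site lies at chr1:93909446-93909474 (+ strand), with the core 34 bases before the start. KEAP1, which has 2 windows, shows the same 9 core bases at chr19:10502784-10502812 (+ strand), 31 bases before an annotated start. The other sites lie at chr12:104215670-104215698 (+) for TXNRD1, chr1:10398853-10398881 (-) for PGD, chr6:83431170-83431198 (-) for ME1, chr1:225825266-225825294 (+) for EPHX1 and chrX:15493289-15493317 (+) for PIR. The ME1 and PIR cores are identical and also hold TGANTCA, the letters of an AP-1 site, so the motifs overlap there. The PIR core lies 26 bases after its start. EPHX1 has 3 windows. The KEAP1 and EPHX1 sites lie inside the extents of these genes in GENCODE 29 (chr19:10486120-10503741 and chr1:225810092-225845563), so the starts used are internal. IDH1 and CBR1 held a core too. Among the 13 genes past the threshold in MONO-MAC-6 (below), 10 had a window and 3 held the core (PGD, EPHX1, PIR), against 6 of the 18 other members with a window. A match of letters is a description of the window and not a site shown to be bound.

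Levels are given in TPM, a share of all transcripts in a library that is corrected for transcript length. Both lines carried the myeloid markers CD33, SPI1 and CEBPA in every sample, at 26.5 TPM or more, while CSF1R stayed at or below 1.73 TPM. CD14 was between 0.225 and 0.491 TPM in MOLM-13 and between 2.66 and 13.5 TPM in MONO-MAC-6. The leucocyte antigen PTPRC was between 0.803 and 4.39 TPM in MONO-MAC-6 and between 4.42 and 33.5 TPM in MOLM-13. The summed markers of T cells reached at most 4.35 TPM, those of B cells 7.45 TPM and those of erythroid cells 9.88 TPM, with CD3E, CD2, MS4A1 and HBB at 0 in all samples, and the summed epithelial and fibroblast markers reached 16.5 TPM. TPM hold no counts, so the depth behind a value cannot be read and counting error is left out. No label says that the samples came from separate cultures, so the p-values measure only the spread between these samples.

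MONO-MAC-6 DMSO sample 1 stood apart from the other samples of that line. Ribosomal protein genes took 26.8% of its TPM and 17.5% to 20.0% in the other 5 MONO-MAC-6 samples, mitochondrial genes took 6.13% against 8.76% to 9.44%, and its TPM-weighted transcript length was 1243 nt against 1415 to 1450 nt. The difference followed transcript length in the 35 genes. Of the 14 members under 1500 nt, 13 were higher in this sample than in the other DMSO samples, with a median difference of 0.24 on log2(TPM + 1), whereas only 3 of the 21 longer members were, with a median of -0.42. Across the 35 members Spearman's rho between length and this difference was -0.805, and across all 12869 genes tested in the line it was -0.518; genes share the libraries and are not independent. TXNRD1 (25.6 TPM in sample 1, 59.6 and 67.1 TPM in samples 2 and 3) and GPX1 (1462 TPM against 985 and 979 TPM) show both sides of the pattern. Among the 27 members at 5 TPM or more in every sample, the median coefficient of variation between samples was 17.0% in MONO-MAC-6 DMSO, 4.1% in MONO-MAC-6 A9, and 6.2% and 8.9% in MOLM-13 DMSO and A9. Between libraries that share the first number of their label, the same median was 2.7% in MONO-MAC-6 and 3.6% in MOLM-13. Counts of members that passed in MONO-MAC-6 are given with and without DMSO sample 1, because it stood apart. The changes of single members are given without it for part of them only, and the changes of genes outside the 35 include it. In MOLM-13, DMSO sample 3 and A9 sample 3 carried the same kind of relation to length, with a rho of -0.670 and -0.688 over 32 members and of -0.532 and -0.50 over all genes tested.

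**Figure D1:**
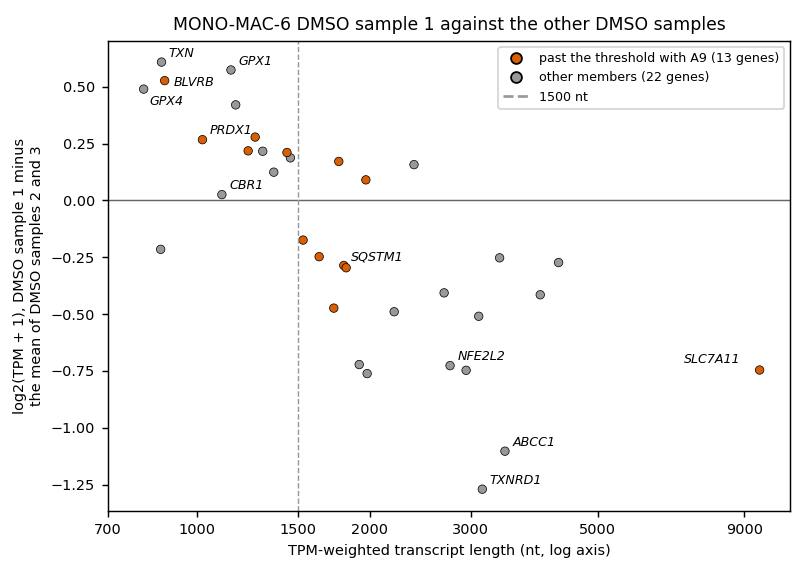
Each point is 1 of the 35 genes; the horizontal axis gives its TPM-weighted transcript length in nt on a log axis and the vertical axis the log2(TPM + 1) of MONO-MAC-6 DMSO sample 1 minus the mean of DMSO samples 2 and 3. Genes to the left of the dashed line at 1500 nt lie above 0 except for 1, and 18 of the 21 genes to its right lie below 0.

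In untreated cells the peroxide enzymes were the most abundant members. PRDX1, which reduces hydrogen peroxide with electrons from thioredoxin, led both lines with 679 ± 27.5 TPM in MOLM-13 DMSO and 1587 ± 175 TPM in MONO-MAC-6 DMSO (mean ± SD, n = 3, as throughout). GPX1 and GPX4, glutathione peroxidases for soluble peroxides and for lipid peroxides in membranes, came next in both lines. In MOLM-13 GPX1 stood at 547 ± 73.9 TPM and GPX4 at 421 ± 35.7 TPM, and TKT (397 ± 22.3 TPM) and TXN (393 ± 39.7 TPM) were within a standard deviation of each other. In MONO-MAC-6 GPX4 (659 ± 136 TPM) and TXN (626 ± 162 TPM) were as close. NFE2L2 ranked 20 of 35 in MOLM-13 (27.3 ± 1.26 TPM) and 18 in MONO-MAC-6 (34.7 ± 9.49 TPM), well below KEAP1 (89.5 ± 2.46 and 88.7 ± 5.95 TPM). At the low end, AKR1C3 (0.0624 ± 0.0246 TPM), ABCC3 (0.127 ± 0.0405 TPM) and AKR1C1 (0.286 ± 0.152 TPM) were under 1 TPM in MOLM-13 with either treatment and were not tested there. These last values are too low to rank among themselves.

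The lines differed in this programme before any treatment. Between the DMSO groups 21 of 35 members passed the test (adjusted p under 0.05 in limma, adjusted over all genes), 16 higher and 5 lower in MONO-MAC-6, beside 58.0% of all genes tested (35.8% higher, 22.1% lower), so the share of members was close to the background. The most abundant members were among those higher in MONO-MAC-6. CBR1, a carbonyl reductase, was at 53.5, 53.7 and 55.4 TPM in the MOLM-13 DMSO samples and at 269, 286 and 294 TPM in MONO-MAC-6, a log2 difference of 2.36 ± 0.06 (SE). Catalase (CAT), which splits hydrogen peroxide without NADPH, was higher by 2.17 ± 0.14, AKR1B1 by 1.64 ± 0.10, MAFG by 1.33 ± 0.09 and PRDX1 by 1.22 ± 0.08. EPHX1 was lower in MONO-MAC-6 by 1.42 on the log2 scale (difference -1.42 ± 0.11), and TXNRD1 (-1.11 ± 0.34), BLVRB (-1.01 ± 0.14), OSGIN1 (-0.45 ± 0.11) and TALDO1 (-0.33 ± 0.07) were the other members lower in that line. Without MONO-MAC-6 DMSO sample 1 all 21 calls remained and 26 members passed, beside 64.5% of all genes. The difference for TXNRD1 became -0.69 there, and its call was lost without MOLM-13 DMSO sample 1. AKR1C2 lost its call without sample 3 of either DMSO group.

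With A9, 13 of the 35 members passed the test in MONO-MAC-6, 11 of them higher and 2 lower. Of all genes tested in that line 3.36% passed (2.51% higher, 0.855% lower). ABCC3 and OSGIN1 exceeded the filter of 1 TPM only in the A9 group; of the 33 members at or above it in both groups, 11 passed, 9 higher and 2 lower. Over those 33 the median log2 fold change was 0.51, and over all genes 0.16. In 22 of the 33 every A9 sample lay above every DMSO sample and in 4 every A9 sample lay below, where 27.2% and 10.7% of all genes tested did so. Scaling the samples by median ratios lowered the median of all genes to 0.01, a shift above 0.1. Under it 8 members passed, all higher, beside 4.33% of all genes. GCLM and SRXN1 were gained, and 7 of the 13 did not pass there. Of these, BLVRB, PIR, TKT, AKR1C1 and AKR1C3 had smaller changes than before scaling. PRDX1 (-0.74) and AKR1B1 (-0.69) did not pass although their changes were larger. The median over all 35 members was 0.36 after scaling and 0.54 before.

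These calls rested on few samples. Without DMSO sample 1, all 13 remained and 29 members passed, 25 higher and 4 lower, beside 24.8% of all genes tested (14.5% higher, 10.3% lower). Without DMSO sample 2, A9 sample 2 or A9 sample 3 none of the 13 passed, with limma adjusted p between 0.0572 and 0.267. Of all genes tested, 0.926%, 0.459% and 0.465% passed in these fits, below the 3.36% with all samples. Without A9 sample 1, 3 passed (SQSTM1, ABCC3, OSGIN1), beside 0.932% of all genes. Without DMSO sample 3, 5 passed (SQSTM1, PGD, TKT, EPHX1, OSGIN1), beside 1.63% of all genes. All 13 kept their direction in each of these 6 fits. Which label number marks a replicate is not stated, although libraries that share the first number differed less than the samples did (above). Averaged by the second number, which spreads sample 1 over all 3 samples, 31 members passed, beside 67.6% of all genes. In bulk RNA, a change in the number of cells of a type and a change in RNA per cell cannot be told apart.

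In MOLM-13, 0 of the 32 members tested passed, by limma with or without a trended and robust variance, beside 0.121% of all genes (0.0862% higher, 0.0345% lower). Averaged by the second number of the label instead, 18 of 32 passed, beside 46.9% of all genes. With the trend on transcript length removed, BLVRB, GCLM, PIR and SLC7A11 passed, beside 1.48% of all genes. An unadjusted p under 0.05 was reached by 4 members (GCLM, TALDO1, BLVRB, PIR) of 32, beside 7.89% of all genes. The median log2 fold change of the 32 was 0.10, beside -0.05 for all genes. In 6 members all A9 samples lay above all DMSO samples, in none below, where 8.59% and 6.42% of all genes did so.

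**Figure D2:**
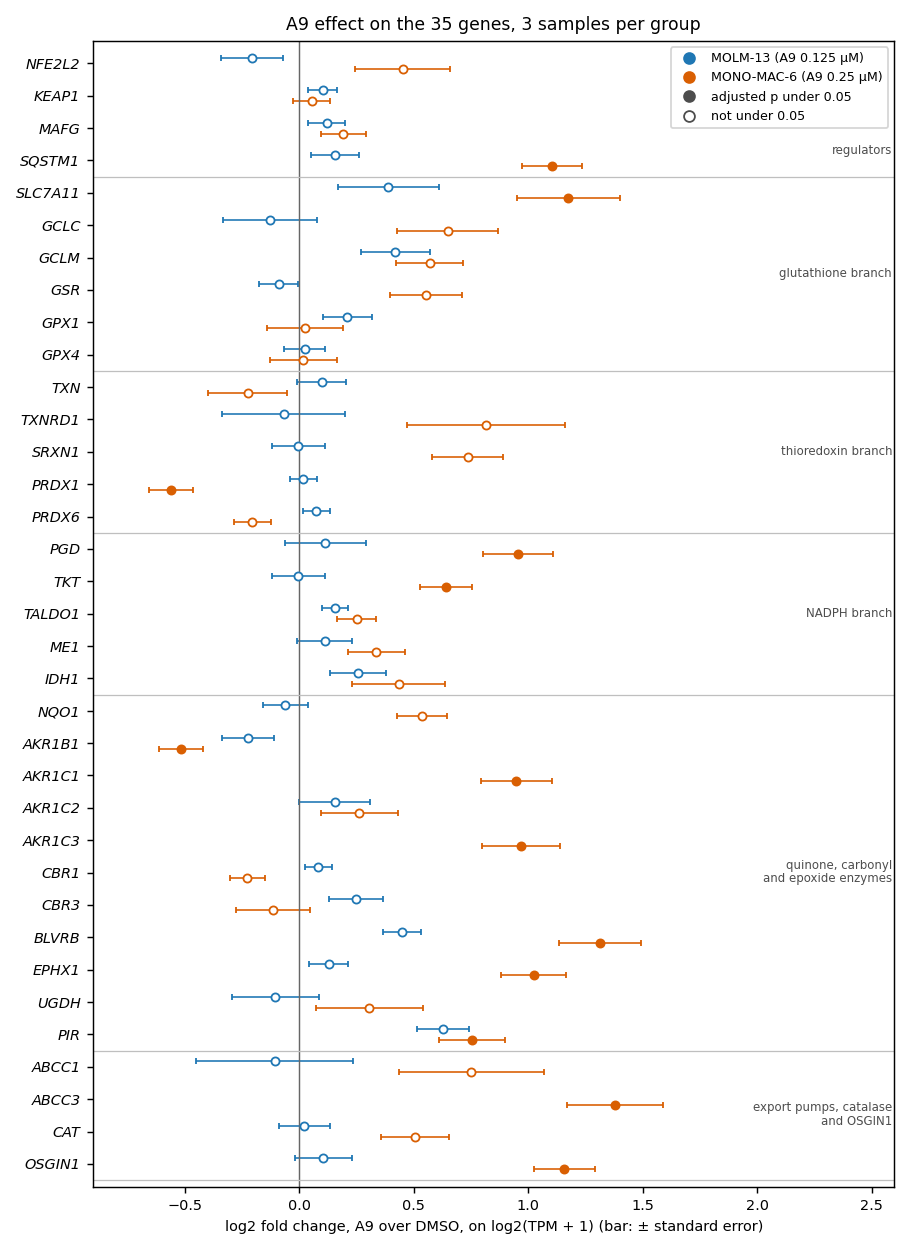
The horizontal axis gives the log2 fold change of A9 over DMSO on log2(TPM + 1), with a bar of 1 standard error on each side, for each of the 35 genes on the vertical axis, grouped by role; blue is MOLM-13 and orange MONO-MAC-6, and filled circles passed an adjusted p under 0.05. All 13 filled circles are orange, 11 to the right and 2 to the left of 0.

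Among the regulators, NRF2's own transcript did not pass the test in either line. NFE2L2 was at 28.1, 27.9 and 25.8 TPM in MOLM-13 DMSO and at 26.5, 25.5 and 19.2 TPM with A9, a log2 fold change of -0.21 (95% interval -0.53 to 0.12, limma adjusted p = 0.825). The MONO-MAC-6 samples gave 23.8, 41.4 and 38.9 TPM with DMSO and 45.3, 45.6 and 48.7 TPM with A9, a log2 fold change of 0.45 (-0.05 to 0.96, adjusted p = 0.283). Without DMSO sample 1, the lowest of them, the change was 0.21 and passed the threshold. KEAP1 was even flatter, with 95.3, 83.8 and 86.9 TPM in MONO-MAC-6 DMSO and 91.8, 93.3 and 90.8 TPM with A9 (0.05, -0.14 to 0.25, adjusted p = 0.679), and its sign turned under median-ratio scaling (-0.12). Without DMSO sample 1 the KEAP1 change was 0.11 and did not pass, with every A9 sample above the remaining DMSO samples. In MOLM-13 the KEAP1 change was 0.10 (-0.05 to 0.25, adjusted p = 0.806). MAFG gave 0.19 ± 0.10 in MONO-MAC-6 and 0.12 ± 0.08 in MOLM-13, and neither passed (in MONO-MAC-6 the sign turned, to -0.08, when the trend on transcript length was removed). SQSTM1 was the regulator that passed in MONO-MAC-6. It rose from 73.1, 85.9 and 92.9 TPM to 161, 206 and 179 TPM, with every A9 sample far above every DMSO sample (1.10 ± 0.13, adjusted p = 0.011). In MOLM-13 it stood at 43.0, 46.3 and 45.8 TPM with DMSO and 51.0, 56.7 and 43.8 TPM with A9, where the groups overlapped. All 4 of the SQSTM1 transcripts with at least 10% of the gene's TPM had a higher mean with A9 in MONO-MAC-6, among them SQSTM1-201 at 36.1 ± 2.07 TPM with DMSO and 70.7 TPM with A9.

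In the glutathione branch, 1 of 6 members passed in MONO-MAC-6, beside 3.36% of all genes tested. SLC7A11, the cystine importer that feeds glutathione synthesis, rose from 6.66, 11.4 and 12.3 TPM to 22.1, 25.3 and 23.0 TPM (1.18 ± 0.22, adjusted p = 0.0481), and without DMSO sample 1 the change was 0.93. The enzymes of the pathway that follows were higher in every A9 sample but did not pass. GCLC, the catalytic subunit of glutamate-cysteine ligase, stood at 9.22, 16.3 and 16 TPM with DMSO and 20.9 to 22.8 TPM with A9 (0.65 ± 0.22). GCLM, its modifier subunit, stood at 9.28, 12.4 and 13.1 TPM and at 17.3 to 17.7 TPM (0.57 ± 0.15, adjusted p = 0.108), and GSR, which recycles oxidised glutathione with NADPH, at 24.5, 35.8 and 34.8 TPM and 44.8 to 47.6 TPM (0.55 ± 0.16). All 3 passed without DMSO sample 1, at smaller changes of 0.40, 0.43 and 0.38. The peroxidases that spend glutathione moved least, with 0.02 ± 0.17 for GPX1 and 0.02 ± 0.15 for GPX4; without DMSO sample 1, in which both were highest, they became 0.22 and 0.18 and passed, while under median-ratio scaling they turned to -0.15 and -0.16. In MOLM-13 GCLM was the member of this branch with separate groups, at 12, 10.9 and 9.49 TPM with DMSO and 16.1, 16.2 and 12.2 TPM with A9 (0.42 ± 0.15, adjusted p = 0.522). SLC7A11 (0.39 ± 0.22), GPX1 (0.21 ± 0.11), GPX4 (0.02 ± 0.09), GSR (-0.09 ± 0.09) and GCLC (-0.13 ± 0.21) overlapped between the MOLM-13 groups.

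The thioredoxin branch was split in MONO-MAC-6. PRDX1 fell from 1788, 1489 and 1483 TPM to 1079, 1054 and 1081 TPM, so that its lowest DMSO sample was well above its highest A9 sample (-0.56 ± 0.10, adjusted p = 0.0347), and without DMSO sample 1 the change was -0.47. PRDX1 remained the highest member but 1 with A9, behind GPX1 (1141 ± 27.1 TPM against 1071 ± 15.0 TPM). PRDX6, a peroxiredoxin that takes its electrons from glutathione, stood at 282, 250 and 245 TPM with DMSO and 221 to 230 TPM with A9 (-0.20 ± 0.08), and did not pass (-0.14 without DMSO sample 1, where it passed). TXN, thioredoxin itself, overlapped between the groups (-0.23 ± 0.17; -0.02 without DMSO sample 1). The enzymes that serve the cycle lay on the other side. SRXN1, which rescues over-oxidised peroxiredoxins, was at 9.54, 12.6 and 13.3 TPM with DMSO and 18.2, 21.8 and 20.7 TPM with A9 (0.74 ± 0.16, adjusted p = 0.0653). TXNRD1, which recharges thioredoxin with NADPH, was at 79.3 to 85.7 TPM with A9, above all 3 DMSO samples (0.82 ± 0.35). Without DMSO sample 1 both genes passed, SRXN1 at 0.60 and TXNRD1 at a smaller 0.39. Because PRDX1 and TXN make up most of the branch, its summed TPM was lower with A9, 1924 ± 12.8 against 2535 ± 333 TPM, although 2 of its 5 genes had higher values. The DMSO sums were 2919 TPM in sample 1 and 2359 and 2327 TPM in samples 2 and 3. In MOLM-13 the 5 log2 fold changes lay between -0.07 and 0.10, and all 5 overlapped between the groups.

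In the NADPH branch of MONO-MAC-6, every A9 sample exceeded every DMSO sample in all 5 genes, as in 27.2% of all genes tested. Of the 5 genes 2 passed, beside 3.36% of all genes tested. PGD, the second dehydrogenase of the oxidative pentose phosphate pathway, rose from 89.8, 118 and 132 TPM to 202, 233 and 221 TPM (0.96 ± 0.15, adjusted p = 0.028; 0.80 without DMSO sample 1). TKT, a transketolase of the non-oxidative part, rose from 426, 489 and 559 TPM to 737, 793 and 758 TPM (0.64 ± 0.11, adjusted p = 0.0372). TKT lost its call when only protein-coding transcripts were summed, which hold 63.2% of its TPM, although the change there was 0.75 (adjusted p = 0.111). TALDO1, the transaldolase beside it, was at 213, 181 and 186 TPM with DMSO and 222 to 235 TPM with A9 (0.25 ± 0.09). ME1 (0.34 ± 0.12) and IDH1 (0.43 ± 0.20), which make NADPH in the cytosol from malate and isocitrate, lay in the same range. All 3 passed without DMSO sample 1, with IDH1 at 0.19, ME1 at 0.25 and TALDO1 at 0.32. Median-ratio scaling lowered all 5 changes, to 0.78 for PGD, 0.47 for TKT, 0.26 for IDH1, 0.17 for ME1 and 0.07 for TALDO1. The summed TPM of the branch were 806, 908 and 1003 with DMSO and 1299, 1404 and 1354 with A9. In MOLM-13 the sums were 882, 849 and 815 TPM with DMSO and 924, 1002 and 792 TPM with A9, so the groups overlapped. TALDO1 alone had separate groups there, at 233 to 254 TPM and 268 to 276 TPM (0.15 ± 0.06, adjusted p = 0.522).

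**Figure D3:**
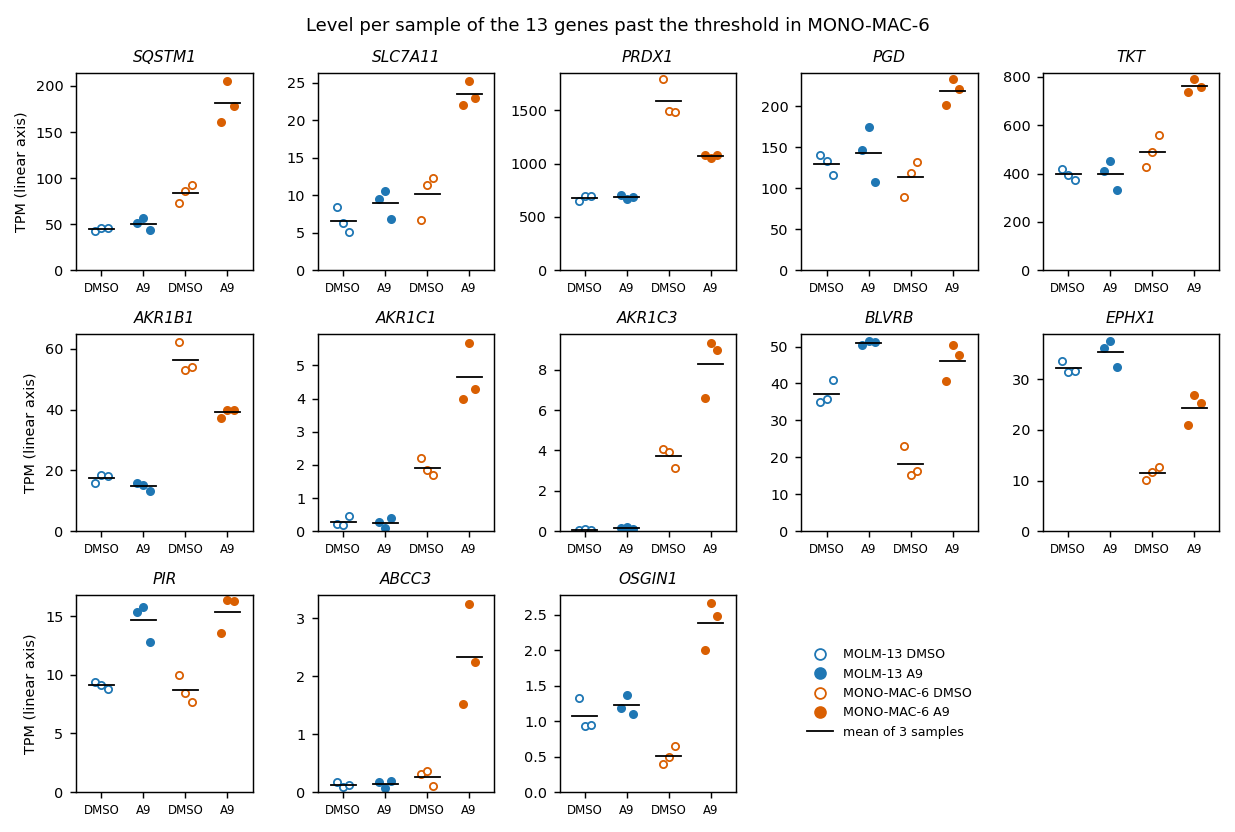
Each panel gives the TPM of 1 gene (vertical axis, linear, from 0) in the 12 samples, for the 13 genes that passed in MONO-MAC-6; open circles are DMSO, filled circles A9, blue MOLM-13, orange MONO-MAC-6 and the black line the mean of 3 samples. In every panel the filled and open orange circles do not overlap, while the blue groups overlap except for BLVRB and PIR.

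Of the 11 quinone, carbonyl and epoxide enzymes, 5 rose and 1 fell in MONO-MAC-6, beside 2.51% and 0.855% of all genes tested. BLVRB, a biliverdin and flavin reductase, rose from 23.1, 15.2 and 16.3 TPM to 40.6, 50.3 and 47.6 TPM (1.31 ± 0.18, adjusted p = 0.0174). It was also higher in every A9 sample of MOLM-13, at 50.3, 51.5 and 51.2 TPM against 35, 35.7 and 41.0 TPM, but did not pass there (0.45 ± 0.08, adjusted p = 0.146). EPHX1, the microsomal epoxide hydrolase, rose from 10.1, 11.7 and 12.6 TPM to 21.0, 27.0 and 25.2 TPM (1.02 ± 0.14, adjusted p = 0.0183), still below its level in MOLM-13, which was 31.4 TPM or more in all 6 samples. PIR, an iron-binding nuclear protein, stood at 9.42, 9.12 and 8.81 TPM with DMSO and 15.4, 15.8 and 12.8 TPM with A9 in MOLM-13 (0.63 ± 0.11, adjusted p = 0.139). In MONO-MAC-6 it rose from 10.0, 8.43 and 7.73 TPM to 13.5, 16.4 and 16.3 TPM (0.76 ± 0.14, adjusted p = 0.0453), and the difference between the lines was 0.13 ± 0.17.

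The aldo-keto reductases went different ways in MONO-MAC-6. AKR1C1 rose from 2.20, 1.85 and 1.69 TPM to 4.0, 5.67 and 4.29 TPM (0.95 ± 0.15, adjusted p = 0.0292), and AKR1C3 from 4.09, 3.93 and 3.14 TPM to 6.57, 9.30 and 8.98 TPM (0.97 ± 0.17, adjusted p = 0.0368). AKR1C2, between them on chromosome 10, overlapped between the groups (0.26 ± 0.17). The span from the start of AKR1C1 to the end of AKR1C3 is 144433 nt in GENCODE 29. These genes are copies similar in sequence, so that the division of reads among them is uncertain. AKR1B1, the aldose reductase, which uses NADPH, fell from 62.5, 53.0 and 54.1 TPM to 37.4, 40.0 and 39.9 TPM (-0.52 ± 0.10, adjusted p = 0.0439). Its full-length transcript AKR1B1-201 fell more, from 44.2 ± 5.88 TPM with DMSO to 27.5 TPM with A9. The short non-coding AKR1B1-210 was also lower in every A9 sample, at 8.73 to 8.94 TPM with DMSO and 7.17 to 7.92 TPM with A9. NQO1, the quinone reductase often used as a readout of NRF2, was at 47.9, 44.8 and 42.9 TPM with DMSO and 57.8, 72.0 and 68.9 TPM with A9 in MONO-MAC-6; the groups were separate, but the test was missed (0.54 ± 0.11, adjusted p = 0.0591). It passed without DMSO sample 1. In MOLM-13 NQO1 overlapped (-0.06 ± 0.10). CBR1 was lower in every A9 sample of MONO-MAC-6 (-0.23 ± 0.08, not past the threshold; -0.22 without DMSO sample 1, where it passed) and higher in every A9 sample of MOLM-13 (0.08 ± 0.06), and its neighbour CBR3, 61746 nt away, gave -0.12 ± 0.16 and 0.25 ± 0.12. UGDH overlapped in both lines (0.31 ± 0.23 in MONO-MAC-6, -0.11 ± 0.19 in MOLM-13).

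Of the remaining members, OSGIN1 and ABCC3 rose in MONO-MAC-6 from levels under 1 TPM, which is how they entered the test. OSGIN1, a growth-regulating gene induced by oxidative stress, went from 0.394, 0.499 and 0.651 TPM to 2.0, 2.67 and 2.48 TPM (1.16 ± 0.13, adjusted p = 0.00985), a change that the pseudocount of 1 TPM makes smaller than the ratio of the mean TPM, 4.63. In MOLM-13 it stayed near 1 TPM (0.937 to 1.37 TPM over both groups). ABCC3, an organic anion export pump, went from 0.309, 0.358 and 0.112 TPM to 1.53, 3.25 and 2.24 TPM (1.38 ± 0.21, adjusted p = 0.0244). Only 15.5% of its TPM lay in protein-coding transcripts, and it fell under the filter when those alone were summed, so most of this value comes from transcripts annotated as non-coding. ABCC1, a pump for glutathione conjugates, stood at 0.518, 1.97 and 2.58 TPM with DMSO and 3.08 to 3.58 TPM with A9 (0.75 ± 0.32). Catalase stood at 204, 284 and 291 TPM with DMSO and 347 to 387 TPM with A9 (0.51 ± 0.15, adjusted p = 0.137). Both were higher in every A9 sample, and without DMSO sample 1 both passed with smaller changes, 0.38 for ABCC1 and 0.34 for catalase. In MOLM-13 neither moved beyond its spread (CAT 0.02 ± 0.11, ABCC1 -0.11 ± 0.34).

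**Figure D4:**
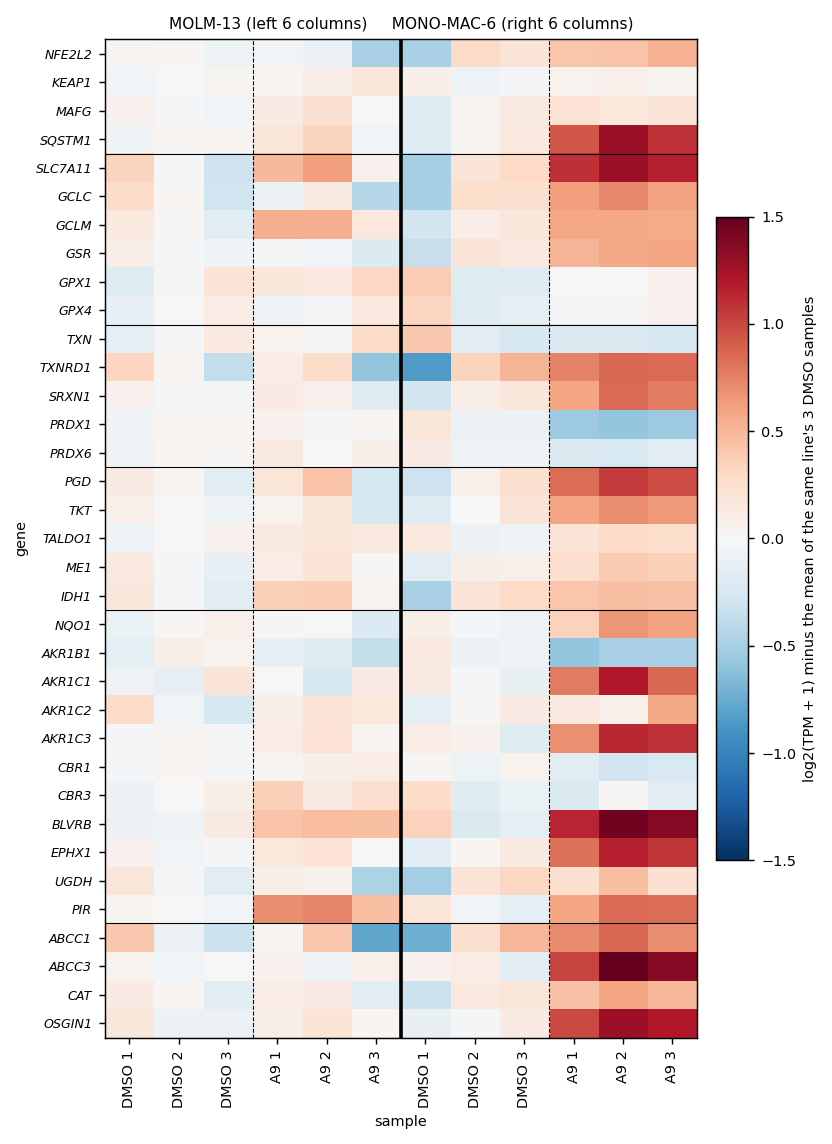
Rows are the 35 genes, columns the 12 samples, and colour gives log2(TPM + 1) minus the mean of the same line's 3 DMSO samples, from -1.5 (blue) to 1.5 (red); black lines separate lines, treatments and gene groups. The 3 A9 columns of MONO-MAC-6 resemble each other, its column DMSO 1 differs from DMSO 2 and DMSO 3, and PRDX1 and AKR1B1 are the darkest blue rows under A9.

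The difference between the A9 effects of the lines was tested directly over the 12 samples, as the effect in MONO-MAC-6 minus the effect in MOLM-13. It passed for 8 members, beside 2.99% of all genes tested (1.92% higher, 1.07% lower). SQSTM1 (0.95 ± 0.17, adjusted p = 0.0158), EPHX1 (0.90 ± 0.16, adjusted p = 0.0134), OSGIN1 (1.05 ± 0.16, adjusted p = 0.00603) and BLVRB (0.87 ± 0.20, adjusted p = 0.0488) had the larger increase in MONO-MAC-6, and PRDX1 (-0.58 ± 0.11, adjusted p = 0.0162) the larger decrease. AKR1C1 (0.99 ± 0.20), AKR1C3 (0.85 ± 0.18) and ABCC3 (1.36 ± 0.23) passed as well, but they were under 1 TPM in MOLM-13 with both treatments, so that a differing response and a lack of expression cannot be told apart. Without MONO-MAC-6 DMSO sample 1 all 8 calls remained and GSR and NQO1 joined them, beside 4.07% of all genes. When each of the 12 samples was dropped in turn, EPHX1, OSGIN1 and ABCC3 passed in all 12, SQSTM1 in 11 (not without MOLM-13 DMSO sample 2), PRDX1 in 8, AKR1C1 in 3, AKR1C3 in 2 and BLVRB in 1. PRDX1 lost its call without MOLM-13 DMSO sample 1, MOLM-13 A9 sample 1 or MONO-MAC-6 A9 sample 2 or 3. For the other 27 members a difference was not shown, which includes PGD (0.84 ± 0.25, adjusted p = 0.123) and TKT (0.65 ± 0.17, adjusted p = 0.0748).

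Other genes of the pathway, 95 on a list of NRF2 control, glutathione, thioredoxin, NADPH, detoxification, iron and superoxide genes, were read beside the members. In MONO-MAC-6 85 were tested and 9 rose while 2 fell (AKR1A1 and CHAC1), beside 2.51% and 0.855% of all genes. Their median was 0.09, below the 0.16 of all genes. In MOLM-13 0 of the 81 tested passed in limma, beside 0.121% of all genes, and 0 passed with the plain variance either. An unadjusted p under 0.05 was reached by 18 of the 81, beside 7.89% of all genes. HMOX1, haem oxygenase, which turns haem into biliverdin, rose from 0.264, 0.197 and 0.380 TPM to 5.10, 12.2 and 8.49 TPM (2.84 ± 0.28, adjusted p = 0.00628). It exceeded the filter of 1 TPM only in the A9 group, and with a pseudocount of 0.1 its change was 4.46. In MOLM-13 it stood at 1.45, 1.60 and 1.57 TPM with DMSO and 5.41, 5.77 and 3.64 TPM with A9, separate groups that missed the test (1.21 ± 0.17, adjusted p = 0.0844). There HMOX1 passed in 6 of 10 other settings. These include median-ratio scaling but also both other uses of the repeat libraries, where 46.9% and 15.0% of all genes passed. Of the 6 fits that left out 1 sample of MOLM-13, HMOX1 passed in 1. Of the ferritin chains, which store iron, FTH1 rose in MONO-MAC-6 from 1100, 912 and 950 TPM to 3181, 3803 and 3464 TPM (1.82 ± 0.11, adjusted p = 0.00136) and FTL by 0.68 ± 0.11 (adjusted p = 0.0292), with 0.24 ± 0.08 and 0.42 ± 0.06 in MOLM-13. FTL passed in MOLM-13 in 4 of 11 other settings, both other uses of the repeat libraries among them. It passed in 0 of the 6 fits that left out 1 sample of that line.

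NADK, the kinase that makes NADP from NAD, rose by 0.84 ± 0.12 (adjusted p = 0.0198). The secreted glutathione peroxidase GPX3 rose from 2.09, 2.46 and 2.09 TPM to 11.4, 17.2 and 16.1 TPM (2.29 ± 0.18, adjusted p = 0.00266), the microsomal transferase MGST1 by 0.89 ± 0.09 and the methionine sulphoxide reductase MSRB1 by 0.85 ± 0.09. The carboxylesterase CES1 rose from 47.8 to 52.6 TPM to 134 to 159 TPM (1.54 ± 0.09, adjusted p = 0.00134), and the quinone reductase NQO2 by 1.40 ± 0.18 (adjusted p = 0.0141). FTH1, GPX3 and CES1 passed in all 6 fits that left out 1 sample of the line, HMOX1 in 5 (not without A9 sample 3) and MGST1 and MSRB1 in 4, whereas NQO2 and NADK passed in 2 and FTL in 1.

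**Figure D5:**
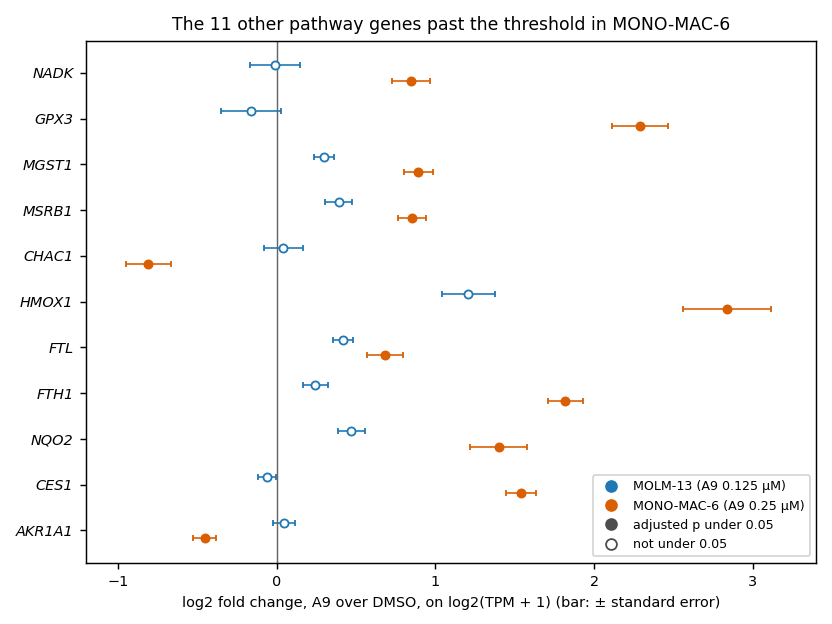
The horizontal axis gives the log2 fold change of A9 over DMSO on log2(TPM + 1), with a bar of 1 standard error on each side, for the 11 pathway genes outside the 35 that passed in MONO-MAC-6; colours and filling are as in the plot of the 35 fold changes. HMOX1 at 2.84 and GPX3 at 2.29 lie farthest to the right, CHAC1 and AKR1A1 lie left of 0, and no MOLM-13 circle is filled.

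Genes of monocyte maturation moved in the same samples. Of 15 on a list, 11 were tested in MONO-MAC-6 and 7 rose, beside 2.51% of all genes, with CD14 (1.77 ± 0.14), CD68 (1.72 ± 0.16) and LYZ (1.17 ± 0.09) among them. The summed level of the list went from between 8122 and 9840 TPM with DMSO to between 17144 and 18458 TPM with A9. In MOLM-13 9 were tested and 3 rose, S100A9 (1.89 ± 0.08), S100A8 (1.87 ± 0.08) and LYZ (1.29 ± 0.08), beside 0.0862% of all genes. There the sum went from between 399.5 and 411 TPM to between 987 and 1072 TPM. No gene of that list was at 0 in all samples, and its part in the NRF2 results was not tested. Of 5 genes of granule precursors, CTSG fell in MONO-MAC-6 (-1.36 ± 0.13), 4 did not pass, and none passed in MOLM-13. The 5 log2 fold changes in MOLM-13 still ranged from -0.41 to 4.47. There 3 of the 5 had an unadjusted p under 0.05 in limma, beside 7.89% of all genes. SLC7A11 is also a target of ATF4, the factor of the amino acid response, and a part of ATF4 in the SLC7A11 change was not tested. ATF4 itself was at 15.8, 21.9 and 22.3 TPM with DMSO and 26.6, 27.2 and 28.5 TPM with A9 in MONO-MAC-6, and did not pass. Of 16 genes of the amino acid response in MONO-MAC-6, NUPR1 rose (0.78 ± 0.14), and ASNS (-0.55 ± 0.10), CHAC1 (-0.81 ± 0.14) and PHGDH (-0.85 ± 0.07) fell. Of all genes tested 2.51% rose and 0.855% fell. The median of the 16 was -0.19, whereas in MOLM-13 DDIT4 alone passed and fell (-0.68 ± 0.05).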

How the data were processed

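RNA sequencing of 36 libraries from MOLM-13 and MONO-MAC-6 cells was analysed from the tables deposited by the authors, which give TPM for 207175 Ensembl transcripts in each library. Each library summed to 1000000. Kallisto, limma and GRCh38 are named in the submitters' processing notes, and their versions and roles, and the annotation release, are not given in the sources used here. Poly(A) RNA with a RIN of at least 8 was read as 150 base pairs of ends, per the labels' protocols; TPM hold no counts, so the depth reached is unknown.

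Transcripts were matched by identifier to GENCODE 29 (162526, 78.4%, with 89.8% to 91.4% of TPM), and TPM were summed to 35460 genes. Libraries that shared line, treatment and the first number of their label were averaged, giving 3 samples in each of 4 groups. A gene was tested where either group of a comparison averaged 1 TPM or more, on log2(TPM + 1) with limma 3.58.1 in R 4.3.3 (trended and robust variance), two-sided, with Benjamini-Hochberg adjustment over all genes and a threshold of 0.05. Limma took the place of a count test because the unit is TPM; an exact permutation test of 3 against 3 cannot reach that threshold. Each line was fitted over its 6 samples, and the difference of the lines' effects and of their DMSO groups over 12. The procedure was tested on simulated data.

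The members and all lists were chosen with earlier results of these data known. The rule for named genes took members past the threshold in a line or in the difference between lines, NFE2L2, KEAP1, the 3 members with the largest change per line at 5 TPM or more, up to 8 other pathway genes per line, and always HMOX1, FTL and FTH1; 1 gene of the pathway list is not reported here. CHAC1, AKR1A1, MGST2, genes of the maturation, granule and amino acid response lists, and members below the threshold were named after their values were seen. Other settings tried were no filter, a pseudocount of 0.1, a minimum of 5 TPM, median-ratio scaling, removal of trends on transcript length or GC content (lowess, span 0.5), a replicate block, other uses of the repeat libraries, protein-coding transcripts alone, limma without trend and robust variance, and leaving out each sample. Python 3.11.15 served for the tables (pandas 2.3.3) and plots (matplotlib 3.10.9). Promoter windows come from RefSeq, GRCh38.p14; gene positions come from GENCODE 29.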

Additional observations from a re-analysis of the deposited data

Results flagged for a closer look

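For 8 of the 35 genes and 10 of the 88 other pathway genes tested, the A9 effect in MONO-MAC-6 differed from that in MOLM-13 by the test of the difference over 12 samples (limma, adjusted p under 0.05 over all genes). Of all genes tested 2.99% did so. Differences are on log2(TPM + 1), as the effect in MONO-MAC-6 minus the effect in MOLM-13, and dose differs together with line. Among the 35 genes the difference was 0.95 for SQSTM1, 0.90 for EPHX1, 1.05 for OSGIN1, 0.87 for BLVRB and -0.58 for PRDX1. It was 1.36 for ABCC3, 0.99 for AKR1C1 and 0.85 for AKR1C3, which were under 1 TPM in MOLM-13 with both treatments. Among the other genes of the pathway it was 2.45 for GPX3, 1.63 for HMOX1, 1.60 for CES1, 1.57 for FTH1, 0.93 for NQO2, 0.60 for MGST1 and 0.46 for MSRB1, and it was -0.85 for CHAC1, -0.50 for AKR1A1 and -0.41 for MGST2. Of the genes named from the lists of monocyte maturation, granule precursors and the amino acid response, the difference passed for CD14 (1.73), CD68 (1.49), S100A9 (-0.94), CTSG (-0.95), PHGDH (-0.70) and DDIT4 (0.62). CD14 stayed at or below 0.491 TPM in MOLM-13 with both treatments, so for it a differing response and a lack of expression cannot be told apart. HMOX1 had separate groups in both lines, with the larger difference between A9 and DMSO in MONO-MAC-6.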

How the results depend on the processing

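In MOLM-13, where 0 members passed, 1 passed under median-ratio scaling and 1 with the GC trend removed (PIR in both). Of all genes 0.414% and 0.509% did so. With the length trend removed 4 passed, beside 1.48% of all genes. With libraries averaged by the second number 18 passed, and 10 with single libraries as samples (46.9% and 15.0% of all genes). In MONO-MAC-6 the count of 13, beside 3.36% of all genes, became 4 with no filter (0.984% of all genes). It became 8 under median-ratio scaling (4.33% of all genes), 6 of them among the 13. By the second number it was 31 and by single libraries 28 (67.6% and 43.4% of all genes). Leaving out 1 sample gave 0 (without DMSO sample 2, A9 sample 2 or A9 sample 3) to 29 (without DMSO sample 1). Of all genes 0.926%, 0.459% and 0.465% passed in the fits with 0, and 24.8% in the fit with 29. The split of higher and lower calls was 11 to 2, 8 to 0 after scaling and 12 to 0 with the GC trend removed (6.67% of all genes). The test of the difference between the lines' effects was passed by 8. It gave 5 with a pseudocount of 0.1, 5 with no filter and 5 at a minimum of 5 TPM. Of all genes 2.19%, 1.41% and 2.97% passed in these settings. By the second number it gave 29 and by single libraries 25 (63.4% and 41.9% of all genes). When 1 sample was left out it gave 4 to 10. The fits with 4 had 1.47% to 1.64% of all genes passing, and the fit with 10 had 4.07%. Libraries that share a number may share a sample, in which case p-values over single libraries are too small. The cause of these changes was not tested. With the first number as a replicate block, 1 member passed in MONO-MAC-6 (SQSTM1), 4 in the difference between lines and 0 in MOLM-13. Of all genes 0.73%, 1.54% and 0.75% passed there. No label says whether the numbers pair the samples. Deviations of same-numbered DMSO and A9 samples correlated at 0.388, -0.077 and 0.690 in MOLM-13 and at -0.036, 0.10 and -0.110 in MONO-MAC-6, and MOLM-13 DMSO sample 1 correlated best with A9 sample 2 (0.647). These correlations cannot decide the pairing, because deviations of several MOLM-13 samples also followed transcript length. The contrast of the untreated lines, passed by 21, gave 18 (at a minimum of 5 TPM) to 30 (by the second number). Of all genes 58.4% and 85.2% passed in these 2 settings. The sign of KEAP1 in MONO-MAC-6 turned to -0.12 under median-ratio scaling, -0.11 on removal of the length trend and -0.062 on removal of the GC trend. All 13 genes called in MONO-MAC-6 kept their direction in each setting that could be fitted for them (9 of 11 for ABCC3, 10 of 11 for OSGIN1 and AKR1C1), leaving out 1 sample included. Because TPM hold no counts, the precision of members near 1 TPM (ABCC3, OSGIN1, ABCC1) cannot be given.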
